A study of Mus musculus with 16 samples.

Results

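The MYC, MAX and MXD network was followed through 16 RNA-seq samples of mouse TCF1+CD8+ T cells. Its 10 genes were found by their symbol in the gene count table, which lists 54532 genes, of which 28205 had a count in at least 1 sample. They are the activators Myc, Mycn and Mycl, their shared partner Max, and the repressors Mxd1, Mxi1, Mxd3, Mxd4, Mnt and Mga. CD8+ T cells were taken in the naive state from spleens of C57BL/6J mice and repetitively activated in culture over 4 days so that TCF1 was retained. All samples received IL-2 at 85 U/ml for 4 h. Unstimulated untreated cells (n = 4) received nothing more, and unstimulated PGE2 cells (n = 4) had first spent 1 h with prostaglandin E2 at 100 ng/ml. Stimulated untreated cells (n = 4) and stimulated PGE2 cells (n = 4) were treated likewise but also met, for the 4 h, beads coated with anti-CD3 and anti-CD28 antibodies (1 bead for each cell). Cells without beads were thus not without cytokine. The mice used were between 6 and 12 weeks old, and the number of mice or cultures behind the replicates is not given in the sources used here. The p-values therefore measure only the spread between these samples, which may be technical.

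MYC proteins bind DNA as heterodimers with MAX and raise transcription of genes for ribosome building, nucleotide synthesis and amino acid uptake. MXD proteins, MXI1 and MNT compete for the same partner and the same E-box sites, where they recruit SIN3 and histone deacetylases, and MGA joins MAX to a Polycomb complex. In T cells, Myc RNA and protein are short-lived and are induced by antigen receptor and IL-2 signals, and the balance between MYC and the MXD proteins is known to accompany the passage between growth and rest. PGE2 acts on T cells through the receptors EP2 and EP4, which raise cyclic AMP.

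The summed count per sample was 22678254 to 42950763 (median 30211840.5). The defining markers of CD8+ T cells were present, with Cd8a between 667 and 1209 CPM (TMM-scaled counts over a common library total) over all samples. Tcf7, which encodes TCF1, was at 1175 ± 238 CPM (SD, n = 4) in unstimulated untreated cells and at 309 ± 16.6 CPM in stimulated untreated cells. Summed markers of B cells reached 0.821 to 6.89 CPM, with group medians of 1.03 to 2.34 CPM, those of myeloid cells at most 0.507 CPM, of NK cells at most 0.0999 CPM and of erythroid cells at most 0.821 CPM. The CD4+ T cell list summed to 27.4 to 40.6 CPM in unstimulated and 18.0 to 27.6 CPM in stimulated samples, most of it Zbtb7b. Cd4 itself was at most 1.87 CPM, and Foxp3 was at 3.09 to 9.07 CPM over all samples. Cd40lg was at most 0.611 CPM in unstimulated and 4.55 CPM in stimulated samples. The part of these cells in the results below was not tested. In bulk RNA, fewer cells that express a gene and less RNA of it per cell cannot be told apart.

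The upstream sequences of Mxd4, Mxd1 and Mxi1 are shown because these repressor genes were higher with PGE2 in the comparisons below. They are the 250 bases before a RefSeq transcript start on GRCm38.p6, read 5′ to 3′ on the strand of the gene, and capitals mark an E-box (CACGTG), the site that MAX dimers bind. They lie at chr5:34187711-34187960 on the minus strand, chr6:86669160-86669409 on the minus strand and, for the most upstream of the 3 Mxi1 starts, chr19:53310256-53310505 on the plus strand.
Mxd4: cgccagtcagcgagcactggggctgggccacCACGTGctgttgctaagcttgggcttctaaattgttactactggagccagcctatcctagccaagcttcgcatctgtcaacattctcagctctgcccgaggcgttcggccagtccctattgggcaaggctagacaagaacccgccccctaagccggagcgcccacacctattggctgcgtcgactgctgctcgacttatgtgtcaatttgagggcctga
Mxd1: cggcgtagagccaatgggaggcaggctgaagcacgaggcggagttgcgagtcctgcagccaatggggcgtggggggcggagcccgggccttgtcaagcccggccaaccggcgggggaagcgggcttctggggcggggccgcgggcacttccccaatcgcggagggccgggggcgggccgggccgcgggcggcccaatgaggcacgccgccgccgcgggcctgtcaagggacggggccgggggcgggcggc
Mxi1: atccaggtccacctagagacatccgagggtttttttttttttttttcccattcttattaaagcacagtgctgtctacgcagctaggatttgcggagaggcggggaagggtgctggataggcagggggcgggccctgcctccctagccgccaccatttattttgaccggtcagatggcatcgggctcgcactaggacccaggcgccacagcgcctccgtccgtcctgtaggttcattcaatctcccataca
The E-box of Mxd4 begins 219 bases before the start. There were 11 upstream windows for 9 of the 10 genes and none for Myc, whose upstream sequence was thus not searched. Of the 11 windows, 2 held an E-box, against 6.02% of 32851 mouse windows of the same length. They were those of Mxd4 and Mnt (123 bases before the start). The cyclic AMP response element TGACGTCA was in none of the 11 and in 1.55% of all windows, and its part TGACG, searched on both strands and overlapping it, was in that of Mga only, against 17.8%. A match is a description of letters and not a measured binding site.

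Myc (ENSMUSG00000022346, chr15:61985391-61990374, plus strand, GRCm38) had the widest range of levels in the network. In unstimulated untreated cells its level was 131, 134, 115 and 168 CPM in replicates 1 to 4, and in unstimulated PGE2 cells it was 62.8, 63.3, 60.6 and 89.5 CPM. All PGE2 samples lay below all untreated ones. In stimulated cells Myc was at 1367, 1309.7, 1103 and 949 CPM without PGE2 and at 1291, 1217, 826 and 624 CPM with PGE2, so that these groups overlapped with each other and stood far above both unstimulated groups. The order of the group means was unstimulated PGE2 (69.0 ± 13.7 CPM), unstimulated untreated (137 ± 22.6), stimulated PGE2 (989.6 ± 318) and stimulated untreated (1182 ± 192), and only the last neighbours in this order overlapped.

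**Figure D1:**
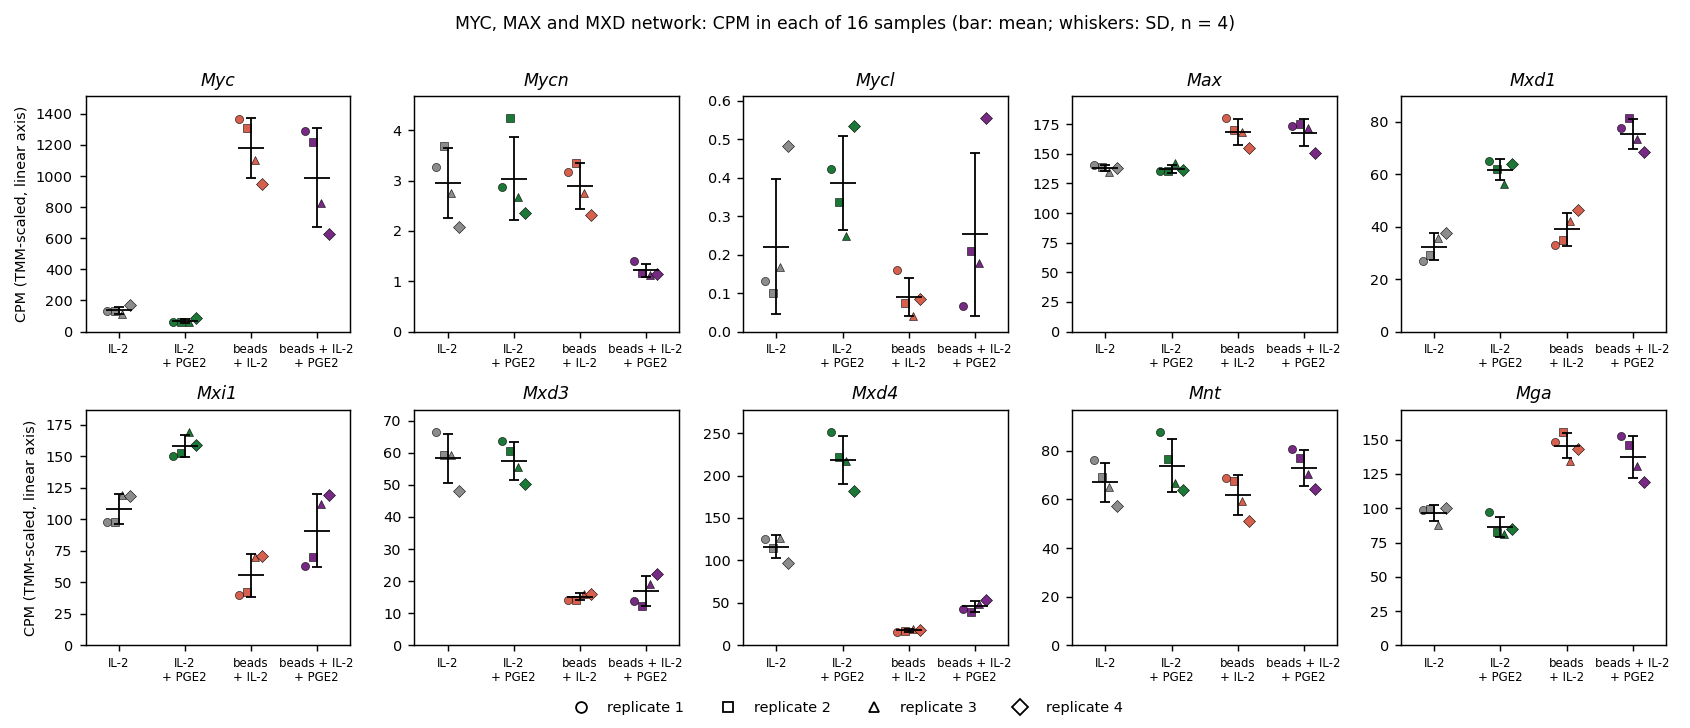
Level of each network gene in CPM (linear axis from 0) in each of the 16 samples, with 4 replicates per group, symbols for the replicate number, and the mean with SD as a bar with whiskers. Myc reached 624 to 1367 CPM in stimulated samples and 168 CPM at most in unstimulated ones, while Mxd4 reached 252 CPM in unstimulated PGE2 cells and 53.9 CPM at most in stimulated ones.

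To ask how PGE2 changed the network in cells that received IL-2 without beads, the unstimulated groups were compared by edgeR's quasi-likelihood test with Benjamini-Hochberg adjustment over all genes tested, the method behind every adjusted p here. The activator Myc was lower and 3 MXD repressors were higher with PGE2, each by less than 2-fold. All 10 genes passed the filter on low counts, and 4 of them had an adjusted p below 0.05, as did 28.4% of the 14505 genes tested. The same 4 did not overlap between the groups, against 28.9% of all genes. None of the 10 also had a fold change of at least 2, the further criterion of the study for a differentially expressed gene (DEG), which 3.38% of all genes met, and DESeq2 and limma on log2(FPKM + 1) also gave 0, although 5 had an unadjusted p below 0.05 in edgeR. The median log2 fold change of the 10 was 0.12, beside -0.00102 for all genes.

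Myc fell by 0.97 on the log2 scale (SE 0.140, 1.95-fold, adjusted p = 0.000422). Within replicate numbers its log2 ratio was -1.08 to -0.91, lower with PGE2 in 4 of 4. The other activators, Mycn, best known from neural and embryonic growth, and Mycl, differed by 0.07 (SE 0.227, 95% interval -0.43 to 0.57, adjusted p = 0.857) and 0.77 (SE 0.485, interval -0.29 to 1.84, adjusted p = 0.273). Mycl rested on 3 to 21 counts per unstimulated sample, and its difference passed the test without unstimulated untreated replicate 4 (1.503, adjusted p = 0.0347). Max (ENSMUSG00000059436), the obligate partner, was at 138 ± 2.75 and 137 ± 3.21 CPM, and the interval of its difference was -0.10 to 0.12.

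Mxd1 (ENSMUSG00000001156, chr6:86647042-86669161), whose product is linked to differentiation, was at 27.0, 29.2, 35.7 and 37.8 CPM without and 65.2, 62.0, 56.2 and 63.8 CPM with PGE2. It rose by 0.95 (SE 0.101, 1.93-fold, adjusted p = 5.82e-05). Mxd4 (ENSMUSG00000037235, chr5:34173883-34187720), whose E-box is capitalised above, was at 126, 115, 126 and 97.3 CPM without and 252, 221, 217 and 182 CPM with PGE2. The lowest PGE2 sample was thus above the highest untreated one, and Mxd4 rose by 0.93 (SE 0.102, 1.90-fold, adjusted p = 6.72e-05). Mxi1 (ENSMUSG00000025025, chr19:53310506-53375810), another SIN3-recruiting repressor, rose by 0.57 (SE 0.0855, 1.48-fold, adjusted p = 0.000539), from 97.5 to 119 CPM without to 151 to 169.5 CPM with PGE2, although in a fit of all 16 samples its adjusted p was 0.0573. Mxd3, the family member linked to proliferating cells, was at 58.3 ± 7.63 and 57.5 ± 5.82 CPM (interval of the log2 difference -0.21 to 0.21).

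Mnt, the MAX-binding repressor that is broadly present in growing and resting cells, was higher by 0.16 (SE 0.101, adjusted p = 0.275) and Mga lower by 0.14 (log2 fold change -0.14, SE 0.0625, adjusted p = 0.117), and neither passed. Both passed with the replicate number as a block, a fit that compares samples of the same number (Mnt 0.16, SE 0.0379, adjusted p = 0.00239; Mga -0.14, SE 0.0412, adjusted p = 0.00857). The block brought the count from 4 to 6 of 10 genes, while the share over all genes went from 28.4% to 47.8%. Mga also passed without unstimulated PGE2 replicate 1 (-0.19, adjusted p = 0.0388).

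To ask the same in cells given beads, the stimulated groups were compared. Mxd4 and Mxd1 were again higher with PGE2 and Mycn was lower. Myc, the abundant activator, was slightly lower within each replicate number and passed only with the replicate block. Of the 9 genes that passed the filter, 3 had an adjusted p below 0.05, against 9.84% of 13922 genes, and 3 did not overlap between the groups, against 17.9%. Mxd4 and Mycn were DEGs, a criterion met by 1.75% of all genes. Mycl was not tested, with 1 to 13 counts per stimulated sample. The median log2 fold change of the 9 was 0.17, beside -0.01 for all genes.

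Myc differed by -0.25 (SE 0.214, interval -0.72 to 0.23, adjusted p = 0.469). The number-matched log2 ratios were -0.08, -0.11, -0.42 and -0.60 in replicates 1 to 4, all lower with PGE2. With the replicate number as a block Myc passed, at -0.29 (SE 0.0819, 1.23-fold lower, adjusted p = 0.0154). Mycn (ENSMUSG00000037169, chr12:12936093-12941914) was at 3.18, 3.34, 2.75 and 2.32 CPM without and 1.41, 1.17, 1.13 and 1.15 CPM with PGE2. The groups were apart, and Mycn fell by 1.24 (SE 0.181, 2.37-fold, adjusted p = 0.00279), on 55 to 120 counts without and 27 to 42 counts with PGE2. Max was at 168 ± 10.6 and 168 ± 11.6 CPM (interval of the log2 difference -0.16 to 0.16).

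Among the repressors, Mxd4 was at 16.3, 16.5, 19.3 and 18.5 CPM without and 42.3, 39.5, 48.2 and 53.9 CPM with PGE2. Every PGE2 sample was above every untreated one, and Mxd4 rose by 1.39 (SE 0.111, 2.62-fold, adjusted p = 0.000128). Mxd1 was at 33.0, 34.8, 42.1 and 46.4 CPM without and 77.8, 81.6, 73.4 and 68.3 CPM with PGE2, and rose by 0.95 (SE 0.115, 1.94-fold, adjusted p = 0.00103). Both were past the threshold in all 18 alternative settings, with log2 fold changes of 1.04 to 1.45 for Mxd4 and 0.84 to 1.05 for Mxd1. Mxi1 was at 39.9, 42.3, 69.7 and 70.7 CPM without and 62.7, 69.7, 112 and 119.6 CPM with PGE2. Replicates 3 and 4 were above replicates 1 and 2 in both groups, which overlapped, and the difference of 0.72 did not pass (SE 0.258, adjusted p = 0.107). It passed in 5 of 18 alternatives, among them the replicate block (0.71, SE 0.0403, adjusted p = 8.00e-07) and the fit without stimulated PGE2 replicate 1 (0.87, adjusted p = 0.0387).

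Mnt was higher by 0.25 (SE 0.105, adjusted p = 0.164), and by 0.25 with the block (SE 0.0418, adjusted p = 0.00101), with a higher value in the PGE2 sample of all 4 replicate numbers. Mxd3 (0.17, SE 0.172, adjusted p = 0.555) and Mga (-0.08, SE 0.0875, adjusted p = 0.587) passed in neither fit. In all, the block brought the count from 3 to 6 of 9 genes, while the share over all genes went from 9.84% to 39.8%.

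**Figure D2:**
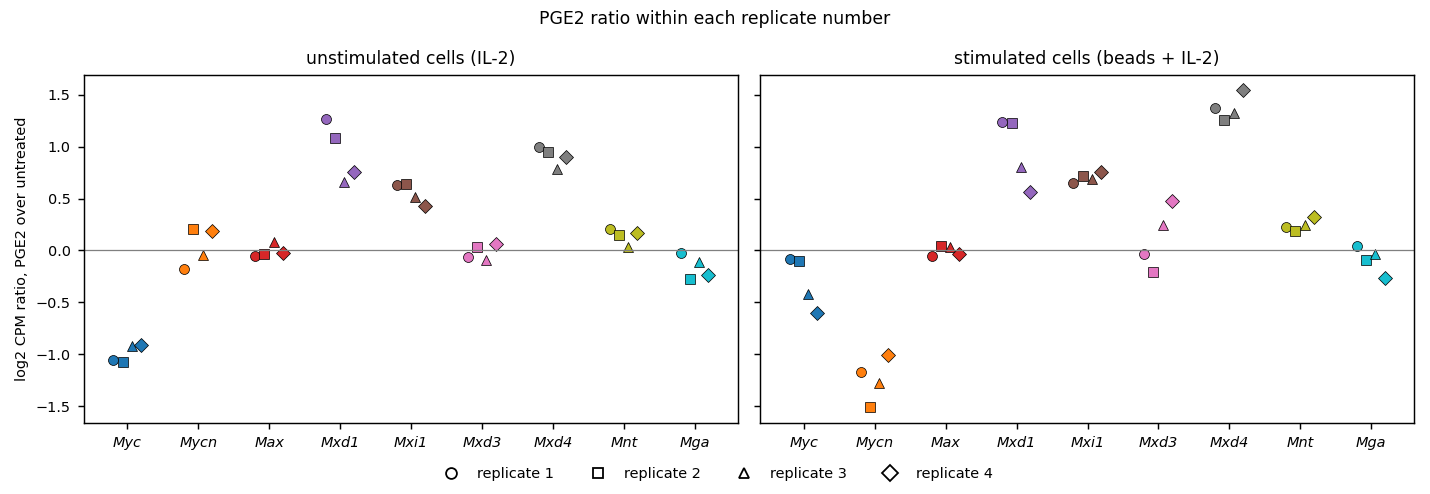
Log2 ratio of CPM, PGE2 over untreated, within each replicate number (symbols) for the 9 genes other than Mycl, in unstimulated cells (left) and stimulated cells (right). Myc was below 0 in all 4 numbers of both panels (-1.08 to -0.91 and -0.60 to -0.08), and Mxd1, Mxi1, Mxd4 and Mnt were above 0 in all.

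Whether the PGE2 effect differed between stimulated and unstimulated cells was tested as an interaction in a fit of all 16 samples. The number of network genes past the threshold was 0 of 10 in edgeR, against 0.749% of 15096 genes, while 3 had an unadjusted p below 0.05. DESeq2 called 1 of 10, Mycn, and limma on log2(FPKM + 1), whose filter removed Mycn and Mycl, called 0. Mycn had the lowest adjusted p, with a difference of -1.30 (SE 0.302, adjusted p = 0.0562), which passed with the replicate block (-1.29, adjusted p = 0.00353) and without unstimulated PGE2 replicate 4 (-1.42, adjusted p = 0.0369). For Myc the difference of the effects was 0.73 (SE 0.278, interval 0.15 to 1.32, adjusted p = 0.364) and for Mxd4 0.47 (SE 0.160, interval 0.14 to 0.81, adjusted p = 0.263). For Mxd1 it was 0.02, with an interval of -0.32 to 0.36. A PGE2 effect on Myc that passed in unstimulated and, without the block, not in stimulated cells was therefore not shown to differ between them.

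To ask how bead stimulation changed the network, stimulated were compared with unstimulated cells, first without PGE2. Myc rose steeply, Mxd4, Mxd3 and Mxi1 fell, and Max and Mga rose by small amounts. Of the 9 genes tested, 6 had an adjusted p below 0.05 (3 higher, 3 lower), against 66.5% of 14205 genes, and the same 6 did not overlap between the groups, against 61.6% of all genes. The share among the 9 was thus near that of all genes. Myc, Mxd3 and Mxd4 were DEGs, as were 23.2% of all genes. The untreated unstimulated samples are also the controls of the PGE2 comparison above.

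Myc rose by 3.10 (SE 0.147, 8.57-fold, adjusted p = 1.33e-08). Mxd4 fell by 2.73 (SE 0.0985, 6.65-fold, adjusted p = 4.80e-09), from 97.3 to 126 CPM down to 16.3 to 19.3 CPM. Mxd3 (ENSMUSG00000021485, chr13:55325168-55329823) was at 66.6, 59.2, 59.3 and 48.1 CPM without and 14.2, 14.3, 16.2 and 15.97 CPM with beads, and fell by 1.96 (SE 0.10002, 3.89-fold, adjusted p = 1.67e-08). Mxd3 shares 105 exon bases (4.43% of its exon length) with Prelid1 on the opposite strand, and whether the counting used strand is not given. Prelid1 was at 386 ± 5.86 and 351 ± 19.8 CPM in these groups, a log2 difference of -0.15 (SE 0.0668, adjusted p = 0.0632).

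Mxi1 fell by 0.98 (SE 0.169, 1.98-fold, adjusted p = 0.000214). Mxd1, in contrast to these repressors, was higher by 0.25 and did not pass (SE 0.127, adjusted p = 0.105), but passed with the replicate block (0.25, SE 0.0549, adjusted p = 0.00254), without unstimulated untreated replicate 4 (0.32, adjusted p = 0.0497) and without stimulated untreated replicate 1 (0.32, adjusted p = 0.0393). Max rose by 0.27 (SE 0.0704, 1.21-fold, adjusted p = 0.00403) and Mga (ENSMUSG00000033943, chr2:119897228-119969581), at 96.6 ± 5.68 and 146 ± 9.02 CPM, by 0.58 (SE 0.0730, 1.49-fold, adjusted p = 1.54e-05). Mycn (-0.03, interval -0.47 to 0.42) and Mnt (-0.12, interval -0.37 to 0.12) did not pass, and Mycl, with 1 to 16 counts per sample, was not tested.

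With PGE2 in both groups, 8 of the 10 genes tested had an adjusted p below 0.05 (4 higher, 4 lower), against 64.2% of 14507 genes, and 8 did not overlap, against 60.2%. Myc rose by 3.86 (SE 0.249, 14.5-fold, adjusted p = 1.29e-06), Mga by 0.69 (SE 0.0956), Max by 0.30 (SE 0.0746) and Mxd1 by 0.30 (SE 0.0798), from 61.8 ± 3.92 to 75.3 ± 5.70 CPM. Mxd4 fell by 2.23 (SE 0.114, 4.69-fold, adjusted p = 1.10e-06), Mxd3 by 1.75 (SE 0.162, 3.37-fold) and Mxi1 by 0.79 (SE 0.181, 1.72-fold). Mycn fell by 1.30 (SE 0.222, 2.47-fold, adjusted p = 0.000396), from 2.37 to 4.25 CPM down to 1.13 to 1.41 CPM. Myc, Mycn, Mxd3 and Mxd4 were DEGs, as were 22.1% of all genes. Mnt was at 73.9 ± 10.8 and 73.0 ± 7.32 CPM (interval of the log2 difference -0.24 to 0.24), and Mycl differed by -0.66 (SE 0.511, adjusted p = 0.275), or by -1.32 (adjusted p = 0.0344) without stimulated PGE2 replicate 4. The comparisons with and without PGE2 differ by the interaction given above, in which no network gene passed.

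**Figure D3:**
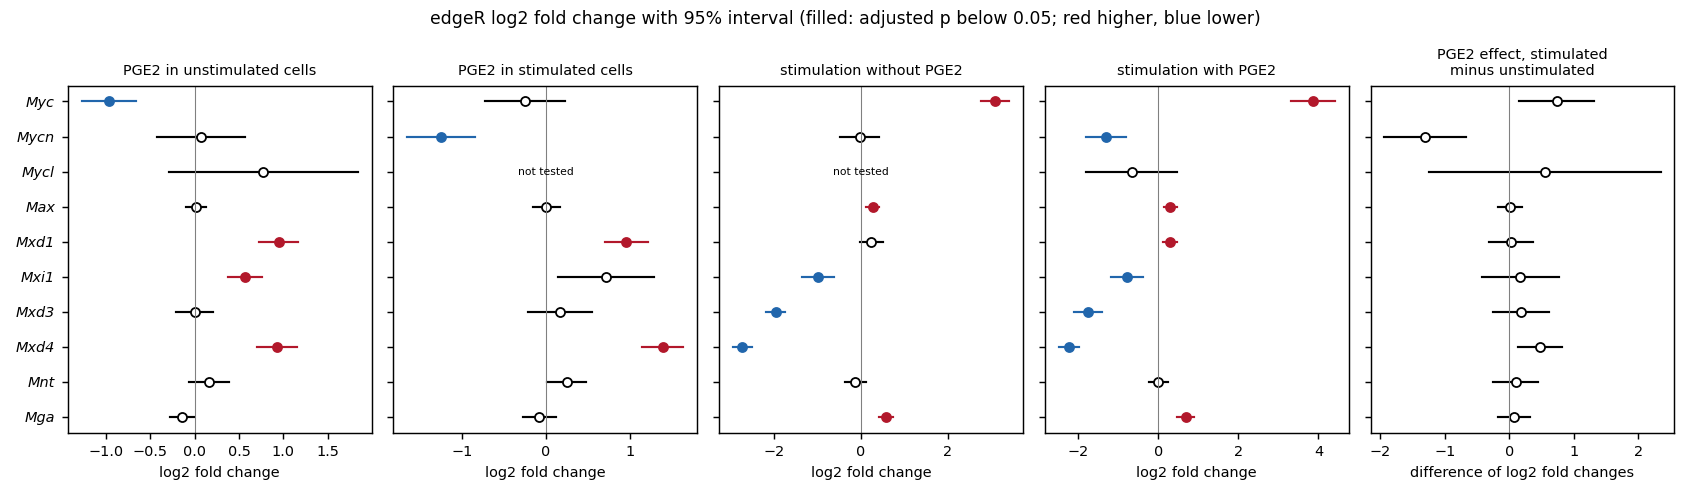
Log2 fold change of each network gene with its 95% interval in 4 comparisons, and the difference between the PGE2 effects (right), each panel on its own axis. Filled points had an adjusted p below 0.05 (red higher, blue lower): 4, 3, 6, 8 and 0 genes from left to right.

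The levels of the 10 genes were set side by side in FPKM, which divides counts by gene length. The deposited length of Mxi1 (5619 bases) is shorter than its 6823 exon bases in the GENCODE M21 annotation. Its FPKM is thus higher than that annotation would give. In unstimulated untreated cells Myc was first of the 10 with 47.9 ± 7.86 FPKM, followed by Max (36.5 ± 0.884), Mxd3 (23.4 ± 3.13), Mxi1 (18.3 ± 1.96), Mnt (13.8 ± 1.71), Mxd4 (13.01 ± 1.54), Mga (5.99 ± 0.371), Mxd1 (4.36 ± 0.668), Mycn (0.852 ± 0.204) and Mycl (0.0519 ± 0.0413). Among neighbours in this order, Mxd3 and Mxi1 overlapped over the 4 samples, as did Mnt and Mxd4, and the others did not. With PGE2, Max led at 36.7 ± 1.01 FPKM, and Mxi1 (27.1 ± 1.52), Mxd4 (24.8 ± 3.34), Myc (24.5 ± 4.68) and Mxd3 (23.4 ± 2.45) followed with overlapping values. In stimulated cells Myc stood above the rest, at 415 ± 75.8 FPKM without and 347 ± 114 FPKM with PGE2, followed by Max at 44.5 ± 3.68 and 44.3 ± 3.26 FPKM. Among 22046 protein-coding genes ordered by mean FPKM, Myc ranked 915 in unstimulated untreated, 1913 in unstimulated PGE2, 114 in stimulated untreated and 124 in stimulated PGE2 cells.

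As a share of the summed FPKM of the 10 genes, Myc made up 29.1 ± 4.04%, 14.7 ± 3.06%, 81.9 ± 2.38% and 75.4 ± 6.63% in the same order of groups. The ratio of Myc to Max in FPKM, which does not depend on library scaling, was 1.31 ± 0.210, 0.667 ± 0.139, 9.26 ± 1.01 and 7.73 ± 2.12. The summed FPKM of Mxd1, Mxi1, Mxd3 and Mxd4 over that of Max was 1.62 ± 0.115 without and 2.28 ± 0.146 with PGE2 in unstimulated cells, and 0.516 ± 0.125 without and 0.855 ± 0.207 with PGE2 in stimulated cells. Myc over this MXD sum was 0.638 to 1.07 in unstimulated untreated and 0.250 to 0.412 in unstimulated PGE2 samples, which did not overlap. It was 12.4 to 25.6 in stimulated untreated and 4.92 to 14.4 in stimulated PGE2 samples, which overlapped. Within replicate numbers, however, it was lower with PGE2 each time. It went from 25.6 to 14.4, 23.6 to 13.2, 14.8 to 6.89 and 12.4 to 4.92 in replicates 1 to 4. These ratios describe RNA and were given no test, and Mycn was 0.0794% to 5.53% of Myc in FPKM over all samples.

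**Figure D4:**
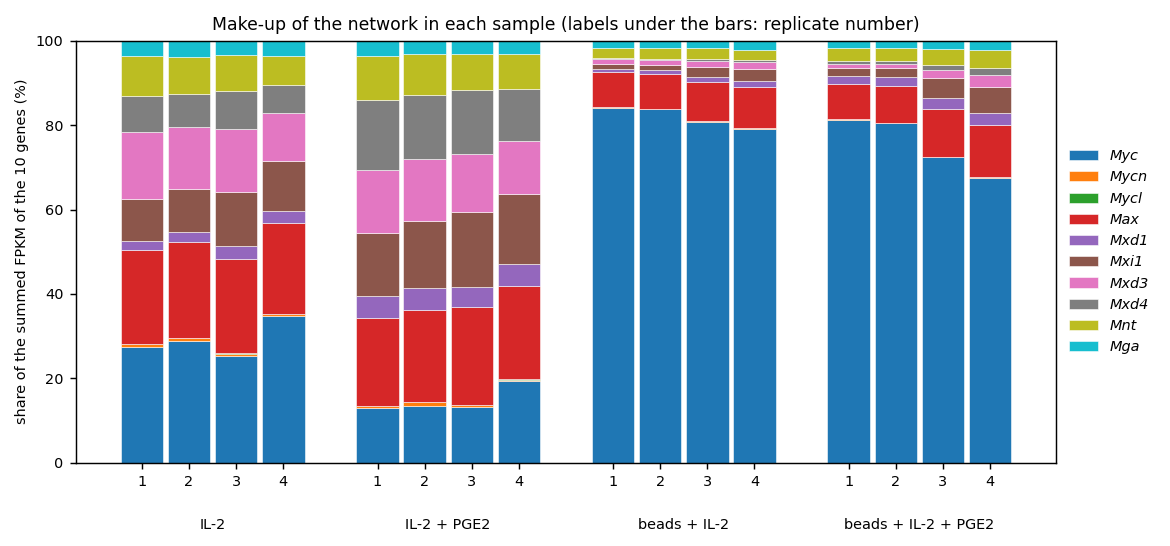
Share of each network gene in the summed FPKM of the 10 genes, as stacked bars for each of the 16 samples (replicates 1 to 4 in each group). Myc took 14.7% on average in unstimulated PGE2 cells and 81.9% in stimulated untreated cells, and Mxi1, Mxd3 and Mxd4 took most of the rest beside Max in unstimulated cells.

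The genes whose log2 CPM was most like that of Myc over the 16 samples, among 8868 genes compared, were Eif1a (Pearson r = 0.998), Eif4e (0.998), Simc1 (0.997), Pisd (0.997) and Slc16a1 (0.997). These samples fall into stimulated and unstimulated ones, a split that all these genes share. For Mycn, among 8869 genes compared, they were Fam129b (0.902), Rgs3 (0.887), Ahdc1 (0.880), Ptk2b (0.857) and Gm2a (0.845). Pvt1 (ENSMUSG00000097039), the noncoding gene beside Myc, was at 14.4, 15.4, 17.0 and 17.9 CPM in unstimulated untreated and 7.13, 8.33, 8.15 and 7.18 CPM in unstimulated PGE2 cells, and fell by 1.05 (SE 0.106, 2.07-fold, adjusted p = 4.01e-05). In stimulated cells it was at 37.2, 38.2, 38.2 and 35.5 CPM without and 29.6, 26.9, 27.7 and 23.0 CPM with PGE2, and fell by 0.47 (SE 0.0847, 1.38-fold, adjusted p = 0.00830). Pvt1 rose with stimulation by 1.19 (SE 0.0889) without and 1.82 (SE 0.113) with PGE2, and its PGE2 effects differed by 0.59 (SE 0.129, adjusted p = 0.0415).

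A list of 42 genes that MYC is known to activate was counted in the same fits, all of them tested. With PGE2 in unstimulated cells 35 fell and 1 rose, while 15.5% of all genes fell and 12.9% rose, and the median log2 fold change was -0.69. Srm, the spermidine synthase gene, fell by 1.92 (SE 0.117, adjusted p = 2.98e-06), Polr1b, a subunit of RNA polymerase I, by 1.74 (SE 0.116, adjusted p = 4.74e-06) and Gnl3, the nucleostemin gene, by 1.71 (SE 0.140, adjusted p = 1.13e-05). In this fit the one that rose was Odc1, the first enzyme of polyamine synthesis, by 0.51 (SE 0.1003, adjusted p = 0.00289), from 353 ± 51.4 to 496 ± 37.8 CPM. The glucose transporter gene Slc2a1 (0.16, adjusted p = 0.0705) and the glycolysis genes Ldha (0.13, adjusted p = 0.264), Pkm (0.19, adjusted p = 0.137) and Hk2 (-0.11, adjusted p = 0.307), which are named after their values were seen, did not pass. With the replicate number as a block 38 of the 42 fell and 4 rose, against 24.2% and 23.6% of all genes. In that fit Slc2a1 (0.16, SE 0.0376, adjusted p = 0.00212), Pkm (0.19, SE 0.0411, adjusted p = 0.00112) and Ldha (0.13, SE 0.0429, adjusted p = 0.0240) rose beside Odc1, and Hk2 fell (-0.11, SE 0.0408, adjusted p = 0.0352).

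In stimulated cells with PGE2, 4 of the 42 fell and 0 rose, against 3.8% and 6.04% of all genes, and the median was -0.31. Nme1, a nucleoside diphosphate kinase gene, fell by 0.63 (SE 0.1201, adjusted p = 0.0101), Shmt2, of mitochondrial one-carbon metabolism, by 0.35 (SE 0.0877, adjusted p = 0.0358) and Prps2, of nucleotide synthesis, by 0.30 (SE 0.0827, adjusted p = 0.0468), beside Cdk4. With the replicate number as a block 37 fell and 1 rose, while the shares of all genes that fell and rose were 20.7% and 19.1%, and leaving out 1 replicate gave 1 to 10 lower genes. With stimulation 42 of 42 rose, both without PGE2 (median 1.41, against 31.7% of all genes higher) and with PGE2 (median 1.79, against 32.5%). In each, 31 of the 42 were also DEGs, against 11.5% and 12.7% of all genes that were higher by this criterion. Shmt1 and Polr1b led without PGE2 at 2.65 and 2.63, and Srm and Polr1b with PGE2 at 4.10 each. In the interaction, 4 of 42 passed, against 0.517% of all genes with a higher value, namely Srm (1.53), Polr1b (1.44), Gnl3 (1.30) and Nop58 (0.98), whose PGE2 effects were less negative in stimulated cells.

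**Figure D5:**
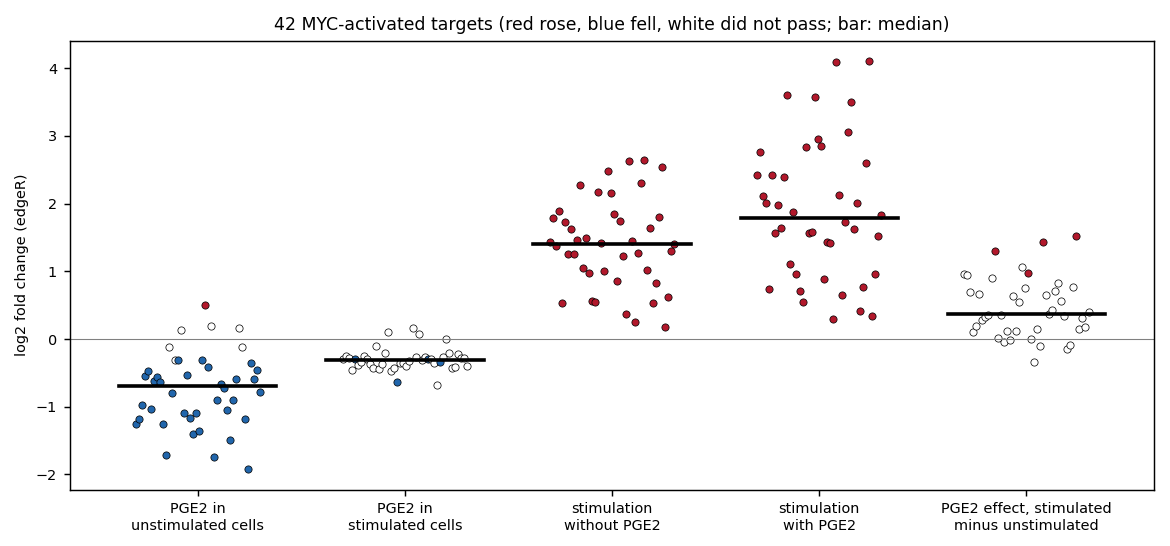
Log2 fold change of each of the 42 MYC-activated targets (points, alphabetical within a column) in 4 comparisons and in the difference between the PGE2 effects, with the median as a bar. The medians were -0.69, -0.31, 1.41 and 1.79 in the comparisons, and red and blue points had an adjusted p below 0.05.

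Of 10 genes listed as repressed by MYC, 8 were tested. With PGE2 in unstimulated cells 3 rose and 0 fell by edgeR (4 had an unadjusted p below 0.05, and DESeq2 also gave 3 and 0), against 12.9% and 15.5% of all genes. They were Gadd45a (0.86, SE 0.146), Ndrg2 (0.61, SE 0.144) and the cell cycle inhibitor gene Cdkn1b (0.34, SE 0.0994, adjusted p = 0.0245). With the block 5 rose and 1 fell, against 23.6% and 24.2% of all genes. The lower one was Cdkn2b (-1.04, SE 0.354, adjusted p = 0.0236). In stimulated cells Cdkn1b (1.07, SE 0.263, adjusted p = 0.0322) and Gadd45a (0.68, SE 0.168, adjusted p = 0.0328) rose and Cdkn2b fell (-1.14, SE 0.276, adjusted p = 0.0307), the last at a mean of 0.742 CPM without and 0.335 CPM with PGE2, against 6.04% and 3.8% of all genes higher and lower. With the block 4 rose and 2 fell in stimulated cells, against 19.1% and 20.7% of all genes. With stimulation 4 fell without PGE2 (34.8% of all genes fell), led by Cdkn1b (-2.60) and Cdkn2c (-1.85), and 6 fell with PGE2 (31.7% of all genes fell), led by the same 2 at -1.83 and -1.43. Cdkn1a, another inhibitor of cyclin-dependent kinases, rose with stimulation in both, by 1.37 (SE 0.244) and 1.33 (SE 0.257).

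Of 16 cofactors of MYC, 2 rose and 5 fell with PGE2 in unstimulated cells, against 12.9% and 15.5% of all genes. With the block 5 rose and 6 fell, against 23.6% and 24.2% of all genes. Without the block the higher ones were Trrap (0.25, adjusted p = 0.0128) and Kat5 (0.23, adjusted p = 0.0124). Among the lower ones were the acetyltransferase gene Kat2a, which fell by 0.91 (SE 0.0600, adjusted p = 4.70e-06), and Ruvbl1 and Wdr5, by 0.59 and 0.56. In stimulated cells edgeR called 0 of the 16, with 1 at an unadjusted p below 0.05, DESeq2 called 1 and limma 0. With the replicate block 2 rose and 6 fell there, against 19.1% and 20.7% of all genes. Of the 16, Kat2a alone had PGE2 effects that differed by the edgeR interaction test (0.75, SE 0.110, adjusted p = 0.00382), against 0.749% of all genes. With stimulation 8 of 16 rose without PGE2, against 31.7% of all genes, led by Ruvbl1 (1.62), Ruvbl2 (1.16) and Wdr5 (1.15), and Bptf fell (-0.74).

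Of 16 corepressor genes that act with MXD proteins and MNT, 5 rose and 2 fell with PGE2 in unstimulated cells. The shares of all genes were 12.9% and 15.5%. With the block 8 rose and 2 fell, against 23.6% and 24.2% of all genes. Sap130 rose by 0.24 (SE 0.0504) and Arid4b by 0.23 (SE 0.0661), and the lower genes were Rbbp7 (-0.56) and the deacetylase gene Hdac2 (-0.49). In stimulated cells edgeR called 0 of 16, with 6 at an unadjusted p below 0.05, DESeq2 called 3 and limma 1. With the block 6 rose and 2 fell there, against 19.1% and 20.7% of all genes. With stimulation 4 rose and 8 fell, both without and with PGE2, where 66.5% and 64.2% of all genes passed, so the share among the 16 was near that of all genes. Arid4a fell by 1.28 and 1.17, Ing1 by 1.23 and 1.06, and Hdac2 rose by 0.87 and 1.16.

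Of 10 partners of MGA in its Polycomb complex, 5 fell with PGE2 in unstimulated cells, against 15.5% of all genes, led by Pcgf6 (-0.88, SE 0.0962), Tfdp1 (-0.73, SE 0.0642) and E2f6 (-0.53, SE 0.0866). In stimulated cells edgeR called 0, with 3 at an unadjusted p below 0.05, DESeq2 called 2 and limma 0. With the block 5 fell there, against 20.7% of all genes. With stimulation 6 rose in both comparisons, against 31.7% of all genes without and 32.5% with PGE2, led by Pcgf6 (1.42 without and 2.04 with PGE2), and the chromobox gene Cbx3 fell (-0.40 and -0.31). With the block 9 rose in both, and the share of all genes under the block is not given for these comparisons.

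Of 23 genes for the stability of the MYC protein, Fbxo32, a ubiquitin ligase subunit, rose with PGE2 in both states, by 0.61 (SE 0.0850, adjusted p = 0.000322) in unstimulated and 1.47 (SE 0.325, adjusted p = 0.0211) in stimulated cells, and it fell with stimulation by 2.93 and 2.02. In unstimulated cells Btrc also rose (0.44), and Set (-0.81), Usp36 (-0.61) and the kinase gene Pim2 (-0.54) fell. These 2 higher and 3 lower genes stood against 12.9% and 15.5% of all genes. With the block 5 rose and 6 fell, against 23.6% and 24.2% of all genes. In stimulated cells Fbxo32 alone of the 23 passed, against 9.84% of all genes. With the block 3 rose and 9 fell there, against 19.1% and 20.7% of all genes. With stimulation 10 rose and 7 fell without PGE2, and 9 rose and 8 fell with PGE2, near the 66.5% and 64.2% of all genes that passed. The kinase genes Pim3 (2.86 and 2.56) and Pim1 (1.85 and 1.68) and the deubiquitinase gene Usp36 (1.80 and 2.03) led the rises.

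MLX, MLXIP and MLXIPL form a parallel arm that shares MNT and some MXD proteins as partners. Mlxip rose with stimulation by 0.51 (SE 0.0728) without and 0.56 (SE 0.0607) with PGE2, and neither Mlx nor Mlxip passed with PGE2 in edgeR without the block, where 1 had an unadjusted p below 0.05 in stimulated cells. With the block Mlx fell in stimulated cells (-0.22, SE 0.0572, adjusted p = 0.0105). Their target Txnip, an inhibitor of glucose uptake, rose with PGE2 in stimulated cells by 0.73 (SE 0.139, adjusted p = 0.0101), from 82.6 ± 11.9 to 137 ± 23.6 CPM, and fell with stimulation by 1.93 and 1.29. With the block Txnip also rose with PGE2 in unstimulated cells (0.13, SE 0.0357, adjusted p = 0.00626). Arrdc4, another target, fell with stimulation without PGE2 by 0.84 (SE 0.209, adjusted p = 0.00318). With PGE2 in stimulated cells Arrdc4 did not pass in edgeR without the block. It rose there with the block (0.62, SE 0.117, adjusted p = 0.00188) and under DESeq2. With PGE2 in unstimulated cells it passed in neither edgeR fit (0.13 with the block, adjusted p = 0.289). The lists were not compared with other genes by a set test, and the counts alone do not set a list apart from the rest.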

How the data were processed

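Poly(A) RNA was sequenced from 16 samples in 4 groups of 4. The authors aligned reads to GRCm38 with HISAT2 2.0.5 and counted them with featureCounts 1.5.0-p3. The deposited counts are raw whole-number counts of reads for each gene. The deposited FPKM were found to be these counts per gene length and library total, up to a constant of 0.878 to 1.11 for each sample. Strand use, counting options and annotation release are not given in the sources used here. The authors tested differential expression with DESeq2 1.20.0.

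Here edgeR 4.0.16 in R 4.3.3 was run on the counts: low genes were removed by filterByExpr at a minimum count of 10, libraries were scaled by TMM, and glmQLFit was followed by the two-sided glmQLFTest, adjusted over all genes tested by Benjamini-Hochberg. Pairwise fits held 8 samples, and the interaction fit 16. A gene rose or fell at an adjusted p below 0.05. DEGs also had a fold change of at least 2 (interaction, at least 1 on the log2 scale). Intervals are 95% and come from the t distribution of the fit. Likeness used log2 CPM with a prior count of 2 and genes whose mean reached 10 CPM. Alternatives were DESeq2 1.42.0, limma 3.58.1 on log2(FPKM + 1) and log2(FPKM + 0.1) at a mean FPKM of at least 1 or without it, RLE and upper-quartile factors, other filters, 1 fit of all samples, the replicate block and leaving out each replicate. The fits were tested on simulated data.

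The rule for named genes was all 10 members and, for each list and comparison, up to 3 genes with the largest fold change in each direction among those past the threshold. Not every gene of this rule is named above, and some outside it are, among them Slc2a1, Ldha, Pkm, Hk2, Cdk4, Nop58, Mlx and Prelid1. The 5 genes most like Myc and Mycn were added. The lists came from general knowledge, and Mycnos was not matched. Members, lists and tests were chosen with earlier results of these data known. Whether replicate numbers pair samples was judged from the correlation of deviations from group means. Same-number pairs reached 0.190 to 0.423 for PGE2 in stimulated cells and 0.137 to 0.444 for PGE2 in unstimulated cells. For stimulation without PGE2 they reached 0.112 to 0.359. All were over 0.1, so by this rule the numbers were judged to pair the samples there. Pairs of different numbers ranged from -0.385 to 0.250 over all groups (median -0.0817), and some were over 0.1 too. In stimulated cells, untreated replicate 1 with PGE2 replicate 2 reached 0.247, above the 0.190 of the same-number pair 2. The rule thus does not set every same-number pair apart from the others. The reported fits nevertheless hold no block, and blocked values stand beside the network genes and list counts they change. List counts with stimulation are an exception. The block moved several of them, and only that of the MGA partners is given with it. For stimulation with PGE2 the same-number pairs were 0.0439 to 0.281, and 2 of the 4 were over 0.1. By this rule the numbers were not judged to pair the samples there or in the interaction. The rule took each comparison alone, however, and numbers that pair samples in the other comparisons would link the same samples here too. A lack of pairing was thus not shown. Blocked values for these fits are given as alternatives only. Counts of replicates differed by more than sampling error (chi-square per degree of freedom 8.46 to 56.8), so no library was counted as a copy of another. The deposited start of Mxi1 differs slightly from GENCODE M21, and its deposited length is 5619 bases against 6823 exon bases there. The FPKM of Mxi1, its place among the 10 genes, the MXD sums and the shares rest on the shorter length. Coordinates and lengths of the other 9 genes match GENCODE M21.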

Additional observations from a re-analysis of the deposited data

Results flagged for a closer look

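Within 40 groups of 4 samples (10 genes in 4 groups), 5 had a highest or lowest sample far from the other 3, where chance gives about 1 in 20. Myc was at 89.5 CPM in unstimulated PGE2 replicate 4, beside 60.6 to 63.3 CPM in the others. Mycn was at 1.41 CPM in stimulated PGE2 replicate 1, beside 1.13 to 1.17 CPM. Max was at 142 CPM in unstimulated PGE2 replicate 3, beside 135 to 136 CPM, and at 150.4 CPM in stimulated PGE2 replicate 4, beside 172 to 175 CPM. Mga was at 88.1 CPM in unstimulated untreated replicate 3, beside 98.8 to 100.01 CPM.

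The PGE2 effect differed between stimulated and unstimulated cells by the edgeR interaction test in 6 genes of the lists, against 0.749% of 15096 genes. They were 4 of the 42 MYC-activated targets, 1 of the 16 cofactors and Pvt1, the 1 noncoding gene tested. No gene of the other lists passed. Each of the 6 had a higher log2 fold change in stimulated cells, and 0.517% of all genes passed in that direction. The differences were 1.53 for Srm, 1.44 for Polr1b, 1.30 for Gnl3, 0.98 for Nop58, 0.75 for Kat2a and 0.59 for Pvt1.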

How the results depend on the processing

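Of 915 alternatives for single network genes, 818 kept direction and side of the threshold, 21 passed where the reported value did not, and 1 no longer passed (Mxi1 with PGE2 in unstimulated cells in 1 fit of all 16 samples, 0.55, adjusted p = 0.0573). In the other 75 the direction turned, all in genes that did not pass. The number of changed network genes under the replicate block was 6 for PGE2 in stimulated cells. Without the block but with a fold change of at least 2 besides, it was 0 for PGE2 in unstimulated cells, 3 for stimulation without PGE2 (4 with the block, where Mxi1 reached 2.02-fold) and 4 for stimulation with PGE2. For the interaction the number of changed genes was 1, Mycn, under DESeq2, under upper-quartile factors, without a filter, with a filter of 10 counts in each sample and under the replicate block, and 0 to 1 without 1 replicate. The block changed no other call of a network gene than those named with the results.

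Max with PGE2 in stimulated cells turned to -0.0122 (DESeq2), -0.0069 (RLE), -0.000199 (no filter), -0.0068, -0.0069 and -0.0068 (limma with pseudocount 1, 0.1 and without the mean filter), -0.0045 (1 fit), and -0.0348 to 0.0521 without 1 replicate. Max with PGE2 in unstimulated cells turned to -0.0076 (1 fit) and was -0.0130 to 0.0352 without 1 replicate. Its interaction turned to -0.0172 (DESeq2), -0.0165 (RLE), -0.0142 (upper-quartile), -0.033 (no filter), -0.0173, -0.0176 and -0.0173 (limma, as above), and was -0.0392 to 0.0394 without 1 replicate. Mxd3 with PGE2 in unstimulated cells turned to 0.0111 (DESeq2), 0.011 (RLE), 0.0127 (upper-quartile), 0.0026 (10 counts in every sample), 0.0018, 0.00199 and 0.0018 (limma), 0.0042 (replicate block), and was -0.0830 to 0.0630 without 1 replicate. Mnt in stimulation with PGE2 turned to -0.00297 (DESeq2), -0.0045 (RLE), -0.1273 (upper-quartile), -0.0512 (no filter), -0.0434 (10 counts), -0.0303, -0.0319 and -0.0303 (limma), -0.0165 (1 fit), and was -0.0870 to 0.0723 without 1 replicate. Mycn was -0.12 to 0.22 without 1 replicate for PGE2 in unstimulated cells, and for stimulation without PGE2 turned to 0.014 (DESeq2) and 0.0100 (RLE) and was -0.172 to 0.0949. The interaction of Mxd1 turned to -0.00797 (no filter) and -0.0015 (limma, pseudocount 0.1) and was -0.0702 to 0.112, and that of Mycl turned to -0.0025 (limma without the mean filter) and was -0.18 to 1.02. The cause was not tested.

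Over all genes, the count for PGE2 in stimulated cells was 1370, and 2066 under DESeq2, 2161 in 1 fit of all samples, 679 under limma without the mean filter, 5544 under the block and 630 to 1854 without 1 replicate. For PGE2 in unstimulated cells it was 4122, and 6938 under the block. For the interaction it was 113, and 236 under DESeq2, 43, 53 and 37 under limma, 408 under the block and 44 to 217 without 1 replicate. MYC-activated targets lower with PGE2 in stimulated cells numbered 4, and 0 to 2 under limma and 7 in 1 fit of all samples. Those in the interaction numbered 4, and 7 under DESeq2, upper-quartile factors or no filter, 0 under limma with pseudocount 1, 11 under the block and 3 to 11 without 1 replicate. Upper-quartile factors moved the median log2 fold change of all genes with stimulation from -0.03 to -0.13 without PGE2 and from 0.00222 to -0.13 with PGE2. Low counts limit Mycl, at 1 to 21 counts per sample.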
